A study of Mus musculus with 4 samples.

Results

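The nuclear-encoded genes of oxidative phosphorylation were described across the cell classes found among sorted intestinal group 3 innate lymphoid cells (ILC3s). The members were all genes in both count tables whose symbols start with Nduf, Uqcr, Atp5, Sdha, Sdhb, Sdhc or Sdhd, or with Cox4 to Cox8, without those ending in -ps. This rule took 95 of the 21027 genes shared by the tables. Cox7b2 and Cox8c are not among them and were not analysed here. The study concerns Cxxc1, a subunit of a histone H3K4 methyltransferase complex, in gut ILC3s, lymphocytes without antigen receptors that make IL-22. Cells sorted as ILC3s from the lamina propria of the small intestine of Cxxc1flox/flox mice that carry a cre, 6 to 8 weeks old, were run as single cells on the BD Rhapsody system. All samples belong to this 1 group: every cell class below comes from mice with the same floxed alleles and the same cre, and no Cxxc1-sufficient cells were compared. The 4 labelled samples are 2 replicates with 2 libraries each, and both libraries of a replicate share 1 table and 1 sample tag, so n was 2. Whether the replicates came from different animals is not stated in the labels. With replicate as a block, p-values measure only how far differences between groups of cells varied between these 2 replicates, with spread borrowed from other genes. That variation may be technical.

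Oxidative phosphorylation couples the oxidation of nutrients to ATP synthesis in the inner mitochondrial membrane. Complexes I (NADH dehydrogenase) and II (succinate dehydrogenase) pass electrons to ubiquinone, complex III (the cytochrome bc1 complex) passes them to cytochrome c, and complex IV (cytochrome c oxidase) to oxygen, while complex V (ATP synthase) uses the resulting proton gradient. Most subunits are encoded in the nucleus, a few core subunits of every complex except complex II are encoded by mitochondrial DNA (genes with the prefix mt-), and separate assembly factors put the complexes together. Lymphocytes raise respiration and mitochondrial mass when they are activated to divide, and antibody-secreting cells also depend on mitochondrial metabolism.

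The values are counts of molecules (unique molecular identifiers, UMIs). The tagged cells held 11939862 UMIs in replicate 1 and 12141164 in replicate 2, and 1945 of 2077 and 4185 of 4532 cells were kept, those with 300 or more genes detected and no more than 25% of UMIs from mt- genes. Each kept cell was given the class of which it expressed the most distinct marker genes, with at least 2 markers and more than for any other class. Classes with at least 20 cells in both replicates were compared: ILC3 (429 and 1328 cells in replicates 1 and 2), T cell (288 and 1920), plasma cell (367 and 26) and stromal cell (565 and 343). Every marker of its own list was detected in each of these classes in both replicates, which is no check of the classes since the gate used these markers. The 26 plasma cells of replicate 2 gave the fewest UMIs of the members (1671). Stromal markers were read in every class, and whether free RNA or mixed cells gave these UMIs was not tested. The 8 stromal markers, among them collagens, summed to 519 and 243 UMIs per 1000000 non-mitochondrial UMIs (CPM) in ILC3s, 592 and 310 in T cells and 618 and 264 in plasma cells, against 62472 and 68142 in stromal cells. In replicate 1, 151 of the 565 stromal cells carried over 5% immunoglobulin UMIs, against 5 of 343 in replicate 2, and the counts and summed levels of stromal cells are given with and without them, as are the calls of named genes that were lost without them. Cxxc1 itself stood at 45.2 and 50.6 CPM in ILC3s, against 93.4 and 80.5 in T cells and 69.5 and 60.9 in stromal cells. Plasma cells had 74.1 and 45.7, from 9 UMIs in replicate 2, and so overlapped with ILC3s. The tables do not show which exons the UMIs cover, and with no control group this is no check of the deletion. The captures share 135 cell numbers, 7 of them between the tagged cells, and each capture was treated as its own set of cells.

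In ILC3s the most abundant members were Cox6c, a small subunit of complex IV, at 867 and 911 CPM in replicates 1 and 2, and Atp5a1, the alpha subunit of the ATP synthase, at 724 and 740. Each UMI stands for 1 captured molecule, so these levels were not divided by transcript length. Complex IV was further led by Cox7c (602 and 704) and Cox6a1 (610 and 578), complex V by Atp5g3 (516 and 533), which encodes subunit c of the membrane ring, and Atp5h (445 and 456). Complex III was led by Uqcrh (379 and 426), Uqcrq (206 and 197) and Uqcrb (145 and 177), and complex I by the accessory subunits Ndufa1 (334 and 366), Ndufa2 (331 and 342) and Ndufv3 (221 and 257). Complex II, which has only 4 subunits, had the smallest sum: Sdha (152 and 137), Sdhd (143 and 128), Sdhc (85.8 and 84.9) and Sdhb (66.5 and 38.4) summed to 447 and 388, against 4693 and 4918 for the 16 subunits of complex V. Sdhb stood higher in replicate 1 than in replicate 2 in all 4 classes. Of the 95 members, 92 had at least 1 UMI in ILC3s, with a median level of 98.6 CPM.

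The summed level of the 95 members differed between classes, and the position of plasma cells depended on whether immunoglobulin UMIs were counted in the total. In CPM, the members summed to 14506 and 15281 in ILC3s (14893 ± 548, SD, n = 2), 14969 and 13455 in T cells (14212 ± 1070), 11084 and 8490 in plasma cells (9787 ± 1834) and 8896 and 10239 in stromal cells (9567 ± 949). ILC3s and T cells overlapped, and plasma and stromal cells lay below both in each replicate. Immunoglobulin genes took 46.4% and 54.9% of the UMIs of plasma cells. With them left out of the total, plasma cells rose to 21558 and 20103 and stood above ILC3s (14608 and 15294) in both replicates, by 1.48-fold and 1.31-fold, so the direction for plasma cells turns with the denominator. Stromal cells stayed below ILC3s, at 0.613 and 0.670 of the ILC3 level, and at 0.647 and 0.672 with only cells of at most 5% immunoglobulin UMIs. With 2 replicates a side no permutation test of these sums can pass, and none was run.

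The mitochondrially encoded share, taken over all UMIs with immunoglobulin included, divided the classes as the nuclear sum in CPM did. It has another base than the sum without immunoglobulin UMIs, where plasma cells were highest, and cannot be set against that sum. Immunoglobulin genes took 46.4% and 54.9% of the 3586088 and 207250 plasma cell UMIs. With them out of the base, the 160208 and 10435 mt- UMIs of plasma cells would be a larger share than in ILC3s in both replicates. The direction for plasma cells thus turns with the base here too. The mt- genes took 7.51% and 6.98% of all UMIs in ILC3s, 6.76% and 7.24% in T cells, 4.47% and 5.03% in plasma cells and 5.68% and 5.36% in stromal cells. On this base ILC3s and T cells again overlapped and the other classes were lower, plasma cells only with immunoglobulin UMIs counted. For each UMI of a nuclear member there were 5.60 and 4.91 mt- UMIs in ILC3s, 4.85 and 5.80 in T cells, 4.22 and 6.24 in plasma cells and 6.77 and 5.53 in stromal cells. These ratios overlapped between all 4 classes, since the replicates lay as far apart as the classes.

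**Figure D1:**
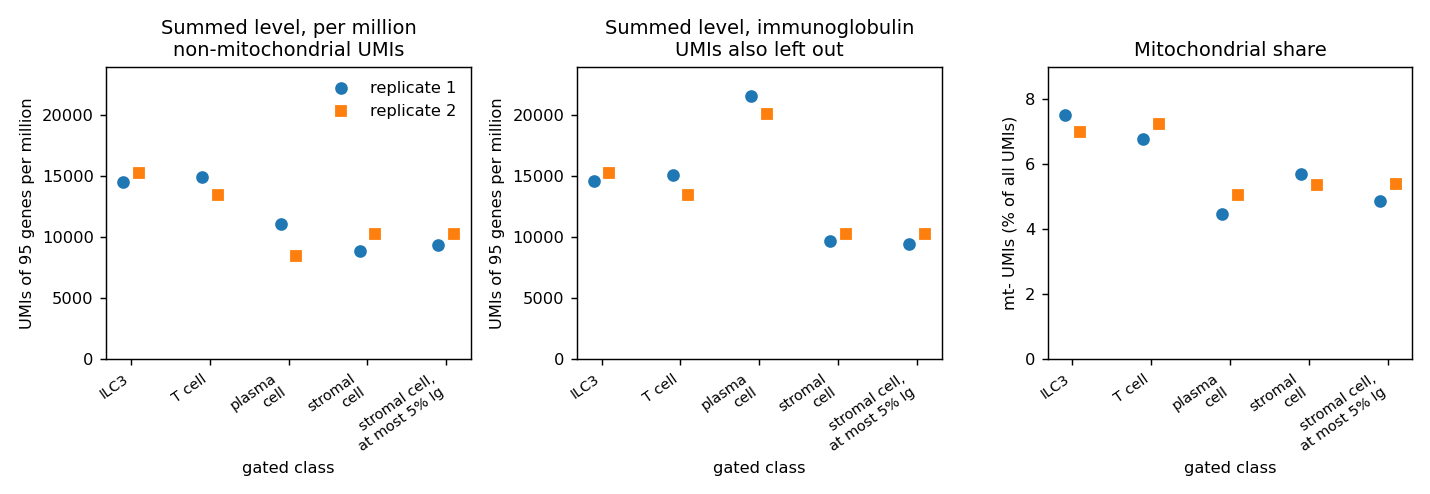
Left and middle, UMIs of the 95 members per 1000000 UMIs (axis from 0) without mitochondrial UMIs, and without mitochondrial and immunoglobulin UMIs. Right, mt- UMIs as a percentage of all UMIs. Each point is the sum over the cells of 1 class in 1 replicate. Plasma cells lie below ILC3s at left (11084 and 8490) and above them in the middle (21558 and 20103).

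Member by member, plasma cells differed most from ILC3s in complex I. The sums were fitted with edgeR's quasi-likelihood test over 11981 genes, with TMM scaling (which sets the total of each sum by the bulk of its genes and so is less affected by immunoglobulin) and replicate as a block. Of 91 members tested, 29 were higher in plasma cells and 2 lower at a Benjamini-Hochberg adjusted p under 0.05; of all genes, 17.6% were higher and 20.2% lower. The median log2 fold change of the members was 0.43, against -0.01 over all genes. In complex I, 19 of 36 subunits rose and 35 of 36 had a fold change above 0, with a median of 0.70, while none of its 8 assembly factors was called. Among subunits of the other complexes, 6 of 16 in complex V, 2 of 8 in complex III, 1 of 4 in complex II and 1 of 11 in complex IV rose. Leaving out cycling cells (97 of 367 plasma cells in replicate 1), an alternative chosen after seeing the data, left 22 members higher and 2 lower. In replicate 2 alone, with 26 plasma cells, the median of the members was 0.04 while that of all genes was -0.53. With cells that expressed 2 or more markers of another class left out, 36 of 367 and 5 of 26 plasma cells remained, too few for a fit. Of the ILC3s, 227 of 429 and 1051 of 1328 remained. The part of RNA from other classes in the plasma cell result was not tested.

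Sdhb, the iron-sulfur subunit of complex II (ENSMUSG00000009863.14, GRCm38, chromosome 4, 140961203 to 140979193), had the largest rise. In CPM computed without mitochondrial and immunoglobulin genes, Sdhb stood at 224 and 168 in plasma cells against 66.9 and 38.4 in ILC3s. The groups did not overlap, and the log2 fold change was 1.73 ± 0.26 (SE, edgeR adjusted p = 1.2e-07). Ndufa1, a small membrane subunit of complex I encoded on the X chromosome, stood at 1006 and 1035 against 337 and 366 on the same scale (log2 fold change 1.39 ± 0.27, edgeR adjusted p = 1.69e-05). Ndufs3, a core subunit of complex I, stood at 110 and 60.2 against 27.3 and 31.4, with only 5 UMIs in the plasma cells of replicate 2 (1.57 ± 0.31). Ndufb9 (1.52), Ndufc1 (1.30), Ndufs6 (1.21), Ndufb6 (1.13) and Ndufb8 (1.09), all accessory subunits of complex I, rose as well, with Uqcrq of complex III (1.10) and Atp5j2 of complex V (1.10). Ndufa5, Ndufab1 and Ndufv2 passed the threshold, but in replicate 2 alone their fold changes were below 0 (-0.27, -0.05 and -0.06). The median of all genes there was -0.53.

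The 2 members lower in plasma cells were Sdhaf1 and Cox6c. Sdhaf1, an assembly factor that serves the iron-sulfur subunit Sdhb, stood at 29.0 and 48.1 CPM without mitochondrial and immunoglobulin UMIs in plasma cells, with 4 UMIs in replicate 2, against 86.4 and 103 in ILC3s (log2 fold change -1.44 ± 0.32, edgeR adjusted p = 0.000164). Cox6c stood at 532.5 and 662 against 873 and 911 (-0.76 ± 0.27, edgeR adjusted p = 0.0207). That Cox6c call was lost with cells over 5% immunoglobulin UMIs kept out of the other classes, which left Sdhaf1 as the 1 member lower. Ndufa4, named after complex I and known as a subunit of complex IV, was the 1 complex IV subunit that rose, at 643 and 505 against 270 and 263 (0.97 ± 0.26).

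**Figure D2:**
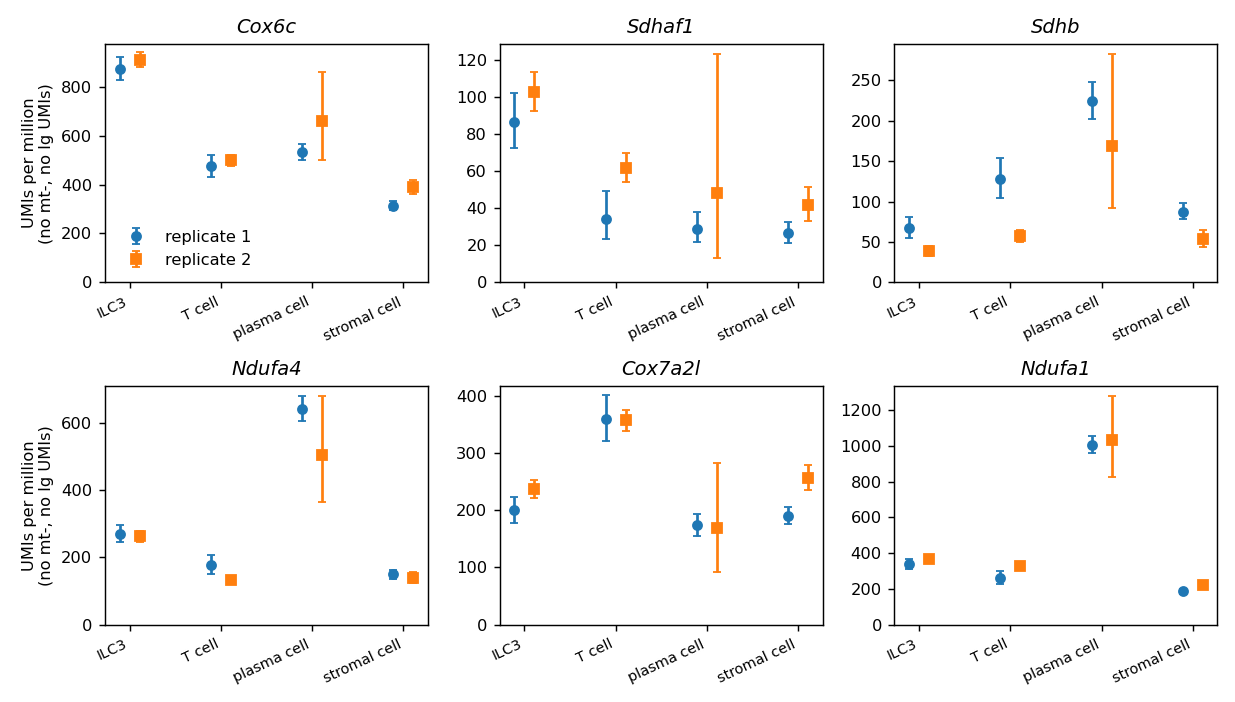
CPM without mitochondrial and immunoglobulin UMIs for 6 members (axes from 0) in the 4 classes. Points are sums over the cells of 1 class in 1 replicate and bars are exact Poisson intervals at 95%, which cover counting error only. Cox6c and Sdhaf1 are highest in ILC3s, and Ndufa1 is highest in plasma cells (1006 and 1035).

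Stromal cells had a lower summed level than ILC3s, but few members were called, and how many depended on the scaling. Of 91 members tested, 7 were higher than in ILC3s and 11 lower, while 27.5% of all genes were higher and 21.1% lower, 48.6% in all. The share of members called, in either direction, was thus below that of all genes. These counts include Cox6b2 (higher) and Cox7a1 (lower), whose tests are not given as support. Of 11 complex IV subunits 4 fell and none rose, and of 16 complex V subunits 4 fell, a share near that of all genes, and none had a fold change above 0. Of 36 complex I subunits 4 rose and 1 fell, a smaller share higher than among all genes. The median of the members was -0.17, against 0.03 over all genes. With size factors from DESeq2 in place of TMM, which moved the median of all genes to 0.18, 10 members were higher and 6 lower; with mitochondrial and immunoglobulin genes left out, 5 were higher and 22 lower. Without cells over 5% immunoglobulin UMIs the counts were 8 and 7.

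Cox6c stood at 289 and 387 CPM in stromal cells against 867 and 911 in ILC3s (log2 fold change -1.06 ± 0.26, edgeR adjusted p = 0.000498). Sdhaf1 stood at 24.4 and 41.3 against 85.8 and 103 (-1.20 ± 0.25, edgeR adjusted p = 3.3e-05). The groups did not overlap for either gene, and both calls held in all 15 alternatives with a test. Atp5d (-0.77) and Atp5h (-0.69) of complex V also fell, and each call was lost in 1 of 15 alternatives, thinning to 1000 UMIs. Atp5a1 (-0.68) of complex V and Ndufa10 (-0.62) of complex I fell less firmly: both calls were lost without the replicate block and where stromal cells had to show 5 markers. The calls of Atp5b (-0.59), Cox7b (-0.61), Ndufa4 (-0.60) and Cox5a (-0.60) were all lost without the cells over 5% immunoglobulin UMIs, with DESeq2 size factors and without the replicate block. Among the genes of complex I that rose were Ndufc1 (0.64), whose call was lost only by thinning, and Ndufv2 (0.65), a core subunit, lost by thinning and without the block. Ndufb9 (0.62) and the assembly factor Ndufaf1 (1.30, from 23 and 17 UMIs in stromal cells) passed the threshold, but 7 of 15 and 5 of 13 alternatives kept these calls. Sdhb rose by 0.72 ± 0.23, a call also lost by thinning and without the block, at 80.8 and 52.9 CPM against 66.5 and 38.4.

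T cells and ILC3s differed in few members. Of 91 tested, 3 were higher in T cells and 5 lower, against 10.6% and 14.4% of all genes, and the medians were 0.10 and 0.01. Without the replicate block, all 8 calls were lost; with only these 2 classes in the fit, 10 were higher and 10 lower. Cox7a2l, which takes part in joining complexes III and IV into supercomplexes, stood at 357 and 356 CPM in T cells against 198 and 236 in ILC3s (log2 fold change 0.81 ± 0.24, edgeR adjusted p = 0.00931). Sdhb (126 and 57.0 against 66.5 and 38.4; 0.83 ± 0.23) and Cox5b (169 and 125 against 105 and 92.7; 0.64 ± 0.23) were the others that rose. In the opposite direction, Cox6c stood at 471 and 498 (-0.79 ± 0.26), Sdhaf1 at 34.2 and 61.8 (-0.85 ± 0.25), Ndufa4 at 175 and 133 against 268 and 263 (-0.72 ± 0.25) and Ndufs5, a complex I subunit, at 79.7 and 85.9 against 112 and 173 (-0.68 ± 0.23). The remaining call, Cox7a1, rests on few UMIs, and its test is not given as support.

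Sdhaf1 and Cox6c were thus lower, and Sdhb higher, in each of the 3 classes than in ILC3s. The 3 comparisons share the ILC3 sums, so an unusual ILC3 value would appear in all of them. Sdhaf1 lies on chromosome 7 (30321406 to 30323895, GRCm38) and Cox6c on chromosome 15 (35925886 to 35938246, GRCm38).

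**Figure D3:**
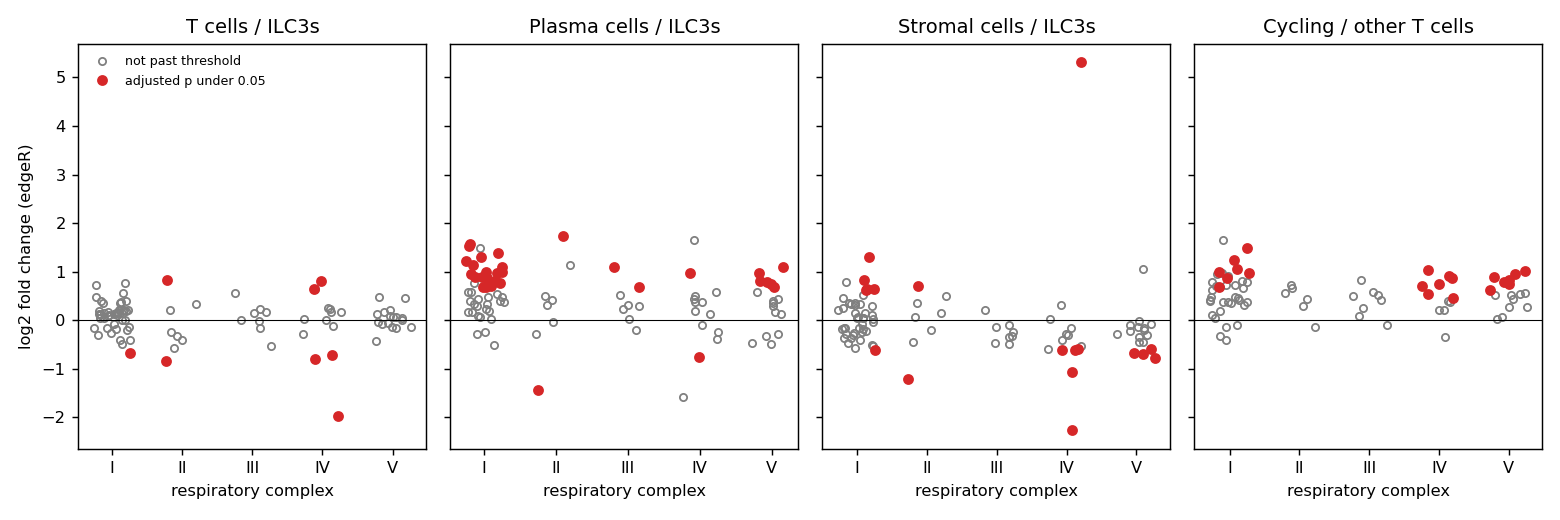
Log2 fold changes of the tested members by respiratory complex (horizontal spread within a complex carries no information) in 4 comparisons. Filled points passed an edgeR adjusted p under 0.05. The rises in plasma cells gather in complex I (19 of 36 subunits), the falls in stromal cells include 4 of 11 complex IV and 4 of 16 complex V subunits, and no member fell in cycling T cells. The highest point for stromal cells is Cox6b2, whose fitted change rests on 2 ILC3 UMIs.

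Tissue isoforms of complex IV subunits had few UMIs in any class. The common forms Cox4i1 (490 and 388 CPM in ILC3s), Cox6a1 (610 and 578), Cox6b1 (328 and 362), Cox7a2 (171 and 159), Cox7b (210 and 215) and Cox8a (425 and 536) were present in every class. The 3 genes for subunit c of the ATP synthase, which encode the same mature protein, stood at 196 and 200 (Atp5g1), 330 and 360 (Atp5g2) and 516 and 533 (Atp5g3) in ILC3s. Atp5g1 (0.98) and Atp5g2 (0.74) rose in plasma cells. In replicate 2 alone Atp5g1 changed by 0.04, where the median of all genes was -0.53. Both calls were lost with cycling cells left out, and that of Atp5g2 also without the replicate block. Of the isoforms, Cox4i2 had 2 and 1 UMIs in ILC3s, and Cox8b had 4 UMIs, all in stromal cells of replicate 1. Ndufa4l2, a relative of Ndufa4 known to be induced by hypoxia, had UMIs in 16 of 565 and 6 of 343 stromal cells and in 5 of 367 plasma cells of replicate 1 (1.36%), with none in the 26 of replicate 2. In ILC3s it had none in 429 and 1328 cells, which allows a share of up to 0.699% and 0.226% of cells with a UMI, counting error only.

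Cox6b2, the testis form of Cox6b1, was detected in 25 of 565 (4.42%) and 32 of 343 (9.33%) stromal cells, at 8.41 and 19.6 CPM. T cells, where 1 of 288 and 2 of 1920 had a UMI (0.347% and 0.104%), serve as a background, at median depths of 2718 and 2086 UMIs per cell against 5853 and 5408 in stromal cells. Over both replicates 69 stromal UMIs stood against 2 in ILC3s, a ratio of rates of 32.6 (exact interval at 95%, 8.69 to 275, counting error only). Since few UMIs lay outside stromal cells, Cox6b2 entered the fit through the class where it is high, and its test is not given as support. Cox7a1, the heart and muscle form of Cox7a2 (chromosome 7, 30184144 to 30186078, GRCm38), went the other way. It had 10 and 38 UMIs in ILC3s (6.45 and 10.3 CPM), 4 and 5 in T cells (4.56 and 1.25) and 6 and 2 in stromal cells (1.68 and 1.01). ILC3s lay above both classes in each replicate. Cox7a1 likewise entered the fit mainly through its highest class, so no test is given, and DESeq2 did not call it against either class.

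Within ILC3s, no nuclear member was called between the Ncr1-gated and the Ccr6-gated subset, while edgeR called 7 of 13 mitochondrially encoded genes, at a finer precision. Ncr1 encodes the receptor NKp46, and Ccr6 marks the lymphoid tissue inducer-like ILC3s. The subsets were cells with a UMI of 1 of these genes and none of the other (56 and 143 Ncr1-gated, 51 and 152 Ccr6-gated cells). The members summed to 14667 and 14807 CPM in Ncr1-gated and 13774 and 14849 in Ccr6-gated ILC3s. Of 80 members tested, none was called by edgeR or by DESeq2, with 4 (edgeR) and 0 (DESeq2) at an unadjusted p under 0.05; of 6656 genes in all, 3.05% were higher and 3.25% lower, 6.3% in all. The median of the members was 0.00, the same as over all genes to this precision. The nearest to the threshold were Ndufb5 (-0.82, interval of ± 2 SE from -1.41 to -0.23, edgeR adjusted p = 0.097) and Cox6c (0.32, 0.09 to 0.56, edgeR adjusted p = 0.104). The median standard error of a member here was 0.26 on the log2 scale, against 0.044 to 0.082 for the 7 mt- genes called. A shift of 0.20, the median of the mt- genes, could thus go uncalled in a member.

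Among the 13 mitochondrially encoded subunits, 7 were higher in Ncr1-gated cells and none lower, with a median of 0.20. Per 1000000 of all UMIs, mt-Nd5, a proton-pumping subunit of complex I, stood at 2375 and 2042 in Ncr1-gated and 1688 and 1431 in Ccr6-gated cells (log2 fold change 0.49, edgeR adjusted p = 4.71e-05). mt-Atp6 of complex V stood at 9154 and 8981 against 7116 and 7505 (0.29, edgeR adjusted p = 0.000158), and mt-Nd3 of complex I at 2676 and 2206 against 2027 and 1696 (0.37, edgeR adjusted p = 0.00126). The subsets did not overlap for these genes. mt-Cytb, mt-Nd4, mt-Co1 and mt-Co2 were also higher. DESeq2 called 1 of the 13, and the fit without a replicate block called none. The mt- share was 7.65% and 7.14% in Ncr1-gated, 6.56% and 6.11% in Ccr6-gated and 7.67% and 7.11% in the remaining ILC3s. The Ncr1-gated cells had lower median depths (3570 and 2963 UMIs against 4281 and 3418), and their summed T cell markers were higher (429 and 352 CPM against 120 and 173). The part of depth and of T cell RNA in this difference was not tested.

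Dividing T cells had more transcripts of the members than other T cells. Cells with UMIs of at least 2 of 6 cell cycle genes were called cycling; T cells were the 1 class with at least 20 such cells in both replicates (22 and 46, against 266 and 1874 others). The members summed to 20329 and 18258 CPM in cycling and 13908 and 13224 in other T cells, 1.46-fold and 1.38-fold higher. Of 80 members tested, 21 rose and none fell by edgeR, with 8.91% of all genes higher and 6.87% lower. The median was 0.53, against -0.01 over all genes, and 73 of 80 had a fold change above 0. Of subunits, 7 of 36 in complex I, 7 of 11 in complex IV and 7 of 16 in complex V rose, while none of complexes II and III passed the threshold although 11 of those 12 had a fold change above 0. These calls rest on 4 sums with 1 residual degree of freedom and on spread borrowed from other genes. DESeq2 called 1 of the 80 members (Atp5g3), and the fit without the replicate block called 5; the direction of all 21 was the same in both replicates.

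Ndufab1, the mitochondrial acyl carrier protein that is also a subunit of complex I, stood at 159 and 147 CPM in cycling and 49.1 and 55.9 in other T cells (log2 fold change 1.50 ± 0.32, edgeR adjusted p = 5.65e-05). Atp5g3 stood at 876 and 940 against 484 and 447 (0.95 ± 0.15, edgeR adjusted p = 3.86e-08). Ndufa4 stood at 324 and 250 against 146 and 127 (1.04 ± 0.23), and Cox6a1 at 724 and 695 against 449 and 417 (0.70 ± 0.16). For these genes both cycling sums exceeded both others. Ndufc2 (1.24), Ndufb6 (1.06), Ndufs5 (0.99) and Ndufa12 (0.97) of complex I, Atp5f1 (1.02) and Atp5j (0.88) of complex V and Cox5b (0.91) of complex IV were, with Ndufab1, Atp5g3 and Ndufa4, the 10 largest rises.

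The mitochondrially encoded subunits did not rise with them. None of the 12 tested was called in either direction, with 2 at an unadjusted p under 0.05 by edgeR and a median of -0.14, and DESeq2 called none; without the low-count filter 2 of 13 were lower. The mt- share was 6.43% and 6.90% in cycling and 6.83% and 7.26% in other T cells. There were 3.38 and 4.06 mt- UMIs per nuclear member UMI in cycling T cells against 5.27 and 5.92 in the others, so the ratios did not overlap. Cycling cells were deeper, with medians of 6583 and 2984 UMIs against 2654 and 2074, and across T cells the member level rose with depth. Spearman's rho with the log of the UMI count was 0.459 in 288 and 0.175 in 1920 cells. The cells of each replicate share 1 capture and 1 sample tag. In cycling T cells summed stromal markers (399.96 and 190.13 CPM) lay below those of other T cells (630 and 316). Dendritic cell markers (20.7 and 21.7 against 9.55 and 19.6) and epithelial markers (20.7 and 27.2 against 16.4 and 25.8) lay above. Plasma cell markers lay above in replicate 1 only (103 against 73.7). Macrophage and mast cell markers were at 0 in cycling T cells, but macrophage markers were also low in other T cells (6.82 and 23.2). The part of depth and of RNA from other classes in the result was not tested. In 2 classes too small to test, the sums pointed the same way: 16213 and 18483 in 24 and 14 cycling ILC3s against 14297 and 15226 in the others, and, without immunoglobulin UMIs, 24701 and 26816 in 97 and 2 cycling plasma cells against 18935 and 18675.

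**Figure D4:**
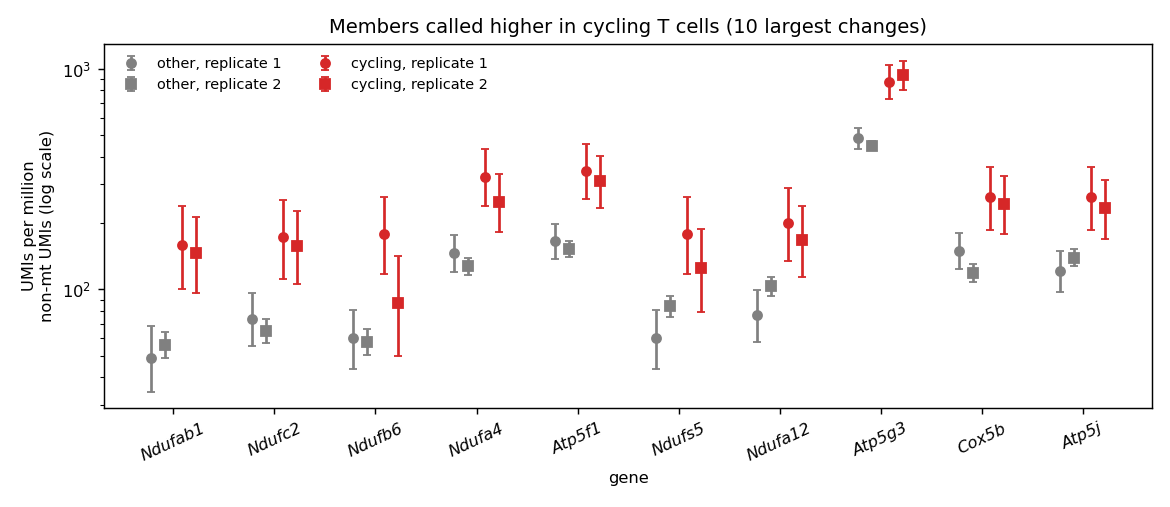
CPM (log axis) of the 10 members with the largest rises in cycling T cells, in cycling and other T cells of each replicate. Bars are exact Poisson intervals at 95% for counting error. Ndufab1 stands at 159 and 147 in cycling cells, above 49.1 and 55.9 in the others.

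Other genes of the pathway were counted on lists of factors that serve it, and many of the counts lay near or below the share of all genes called. In plasma cells, where 17.6% of all genes were higher and 20.2% lower, 5 of 14 tested regulators of mitochondrial biogenesis rose and 2 fell: Tfb1m, which methylates mitochondrial ribosomal RNA, rose by 1.85 and Tfam, which packages mitochondrial DNA, by 0.79, while Gabpb1, a subunit of the ETS factor NRF2, changed by -1.02. Of 30 assembly factors for the complexes outside the member rule, 7 rose and 2 fell, led by Sco1 (1.90), a copper chaperone of complex IV. Of 14 enzymes of the tricarboxylic acid cycle, 3 rose and 1 fell, led by Idh2 (2.30), the mitochondrial NADP-dependent isocitrate dehydrogenase. Of 7 genes for ATP synthase inhibition and nucleotide exchange, 1 rose (Atpif1, the inhibitor of the ATP synthase, 1.53) and 2 fell (Slc25a3, -0.78; Vdac1, -0.70). In stromal cells, with 27.5% of all genes higher and 21.1% lower, 4 of 14 regulators rose and 1 fell (Gabpb1, -1.82), 3 of 30 assembly factors rose and 5 fell, among them Cycs, cytochrome c itself (-1.27), 1 of 14 cycle enzymes rose and 2 fell, and of the 7 exchange genes 3 rose and 1 fell. T cells, with 10.6% of all genes higher and 14.4% lower, had 1 regulator higher, 3 assembly factors higher and 2 lower, 1 cycle enzyme lower (Suclg1, -0.94) and no exchange gene called. In cycling T cells, with 8.91% of all genes higher and 6.87% lower, no regulator of 8 tested was called, Cycs rose (1.11) as the 1 assembly or carrier gene of 15, 3 of 13 cycle enzymes rose (Fh1, 1.79; Sucla2, 1.29; Mdh2, 0.89), and of the 7 exchange genes 5 rose and 1 fell, led by Vdac3 (1.35) and Atpif1 (1.18). No gene of these 4 lists was called between the ILC3 subsets.

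Within a class, the member level was set against the mt- share by dividing the cells of each replicate into tertiles of that share. In ILC3s the level rose slightly from the low to the high tertile, 14182, 14420 and 15022 CPM in replicate 1 and 14918, 15279 and 15719 in replicate 2, and the counting intervals of the low and high tertiles did not overlap. In T cells it went 15003, 14625 and 15258 in replicate 1 and 13127, 13594 and 13641 in replicate 2, without a common order. Plasma cells, in CPM without immunoglobulin, went 19558, 22079 and 22656, and 19384, 19386 and 21298 with 9, 8 and 9 cells. Their tertiles were cut on the mt- share of all UMIs, immunoglobulin included. The 2 measures thus have unlike bases, and no relation is read from this order. Across plasma cells these measures correlated at -0.155 and -0.517 (Pearson) and at 0.085 and 0.086 (Spearman's rho). Stromal cells with at most 5% immunoglobulin UMIs went 7816, 9240 and 12834, and 8527, 9867 and 13585, the largest rise among these 4 classes. Of the 95 members, 86 and 85 were higher in the high than in the low stromal tertile. Among genes with at least 10 UMIs in these tertiles, 91.3% and 93.1% of members were higher, against 56.2% and 56.0% of all non-mitochondrial genes. With all stromal cells of replicate 1 the order was lost (8024, 10597 and 7885).

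In those stromal tertiles other values moved as well. The 8 stromal markers summed to 85077 and 84100 CPM in the low and 41127 and 41653 in the high tertile, ribosomal protein genes to 48021 and 64213 in the low and 77436 and 93354 in the high tertile, and the 6 ILC3 markers to 326 and 474 in the low and 1050 and 1456 in the high tertile. The median depth was 10190 and 6567 UMIs in the low and 4216 and 3307 in the high tertile. With cells that expressed 2 or more markers of another class left out, the levels went 7587, 9012 and 12874, and 8172, 9057 and 12267. There 89 and 72 of the 95 members were higher in the high tertile. Only 85 and 72 members had at least 10 UMIs, and 96.5% and 86.1% of those were higher, against 56.5% and 52.2% of all non-mitochondrial genes. The ILC3 markers stood at 168 in the low and 168 in the high tertile of replicate 1 and at 163 and 483 in replicate 2. The part of depth and of the stromal markers in the total was not tested.

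**Figure D5:**
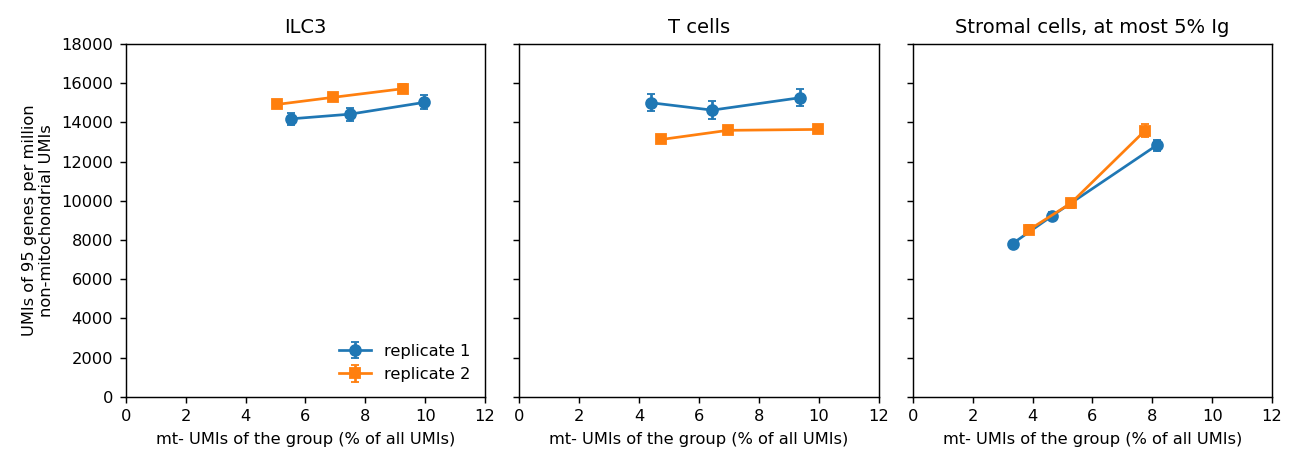
Summed level of the 95 members in CPM (axis from 0) against the mt- share, for cells in tertiles of that share within ILC3s, T cells and stromal cells of at most 5% immunoglobulin UMIs. Bars are exact Poisson intervals at 95%. The lines are nearly flat for T cells and rise from 7816 to 12834 and from 8527 to 13585 in stromal cells.

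Promoter sequences were compared because members in many complexes rose together in plasma and cycling T cells. RefSeq promoters (GRCm38.p6) were found for 79 of the 95 members, 2 of them by a synonym, and the 250 bases before the start were searched on both strands. The palindromic motif of nuclear respiratory factor 1, NRF1, was present in 14 of the 79 (17.7%), against 4.23% of 27025 genes and 6.58% of the 16772 genes with at least 49.3% G and C. The ETS core CCGGAAG was present in 16 (20.3%), against 7.83% and 11.3%. The E-box CACGTG was in 6 members (7.59%, against 6.86% and 8.75%), and the YY1 motif in none (against 0.248% and 0.388%). The promoters of 4 members that rose in plasma cells are printed as examples, 2 with the first motif (Ndufs5 and Ndufb4), 1 with the ETS core (Ndufb6) and 1 with neither (Ndufc2). These 4 were picked after their values were seen and do not give the share of motifs among members that rose. Whether members that rose held a motif more often than other members was not tested. Ndufs5, Ndufb6 and Ndufc2 also rose in cycling T cells, and the plasma cell call of Ndufc2 was lost with cycling cells left out. Each sequence runs 5′ to 3′ toward the start and stops before any annotated exon, capitals mark the motif letters, and the coordinates are chr4:123718203-123718436 (minus strand), chr16:37654454-37654618 (minus), chr4:40279422-40279671 (minus) and chr7:97399753-97400002 (plus).
Ndufs5: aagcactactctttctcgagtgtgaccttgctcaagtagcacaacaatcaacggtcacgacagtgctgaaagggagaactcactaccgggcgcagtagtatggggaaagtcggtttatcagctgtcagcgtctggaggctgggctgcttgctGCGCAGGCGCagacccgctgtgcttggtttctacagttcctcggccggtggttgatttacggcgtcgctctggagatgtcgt
Ndufb4: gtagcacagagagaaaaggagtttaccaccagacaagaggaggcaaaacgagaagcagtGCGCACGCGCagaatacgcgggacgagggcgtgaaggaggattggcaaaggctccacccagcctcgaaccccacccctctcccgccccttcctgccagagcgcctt
Ndufb6: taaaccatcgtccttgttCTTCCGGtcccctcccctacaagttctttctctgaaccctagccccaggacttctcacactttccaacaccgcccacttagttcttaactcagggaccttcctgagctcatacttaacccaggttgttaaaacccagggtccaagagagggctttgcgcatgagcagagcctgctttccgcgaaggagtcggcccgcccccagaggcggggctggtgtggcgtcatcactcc
Ndufc2: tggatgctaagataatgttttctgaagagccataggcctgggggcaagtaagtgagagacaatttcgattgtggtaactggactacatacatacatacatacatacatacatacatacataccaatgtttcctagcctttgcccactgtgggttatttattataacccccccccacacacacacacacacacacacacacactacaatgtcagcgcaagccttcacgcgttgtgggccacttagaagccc

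Ndufb4 holds 3 matches in its full window of 250 bases, of which 1 lies in the stretch shown. A match describes letters only, and binding was not measured.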

How the data were processed

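The values are raw counts of UMIs for every cell, as deposited by the authors. Per the file headers, the BD WTA Multiplex Rhapsody Pipeline 1.8 made them on GRCm38 with GENCODE vM19, and it also assigned sample tags, a further deposited column that holds names. HISAT2 2.0.5 and Bowtie2 appear in the submitters' processing notes with no stated role. Multiplet and undetermined tags were left out, and no doublet caller was run; cells with markers of 2 classes were left out in an alternative. Cells were gated by markers, UMIs were summed per replicate and class, and the sums were fitted with edgeR 4.0.16 (limma 3.58.1, R 4.3.3) by the two-sided quasi-likelihood test with TMM, filterByExpr, replicate as a block and Benjamini-Hochberg adjustment over all tested genes at 0.05. DESeq2 1.42.0 was an alternative. The block was part of the planned design, since the sums of a replicate come from the same cells' capture and tag. Residual degrees of freedom were 3, 2 and 1 for the class, subset and cycling fits. Members, lists and gates were chosen with earlier results of these data known. Genes named were the 10 largest rises and falls per comparison that were called and moved the same way in both replicates, plus isoform pairs, complex II genes, the highest members of each complex in ILC3s and leading list genes; Atp5b, Ndufa5, Ndufv2, Ndufb5 and the promoters printed were chosen after their values were seen. On simulated data for stromal cells against ILC3s (11981 genes, 200 changed), the fit recovered 69% of 2-fold and 100% of 4-fold changes. For cycling T cells (5982 genes), it recovered 55% and 95%. The changed genes were drawn only from the better expressed genes, and no replicate effect was simulated. These rates thus do not cover members of low level. Intervals are exact Poisson at 95% and cover counting error only. Gene positions are from GENCODE vM21, matched by symbol. Sums and figures were made in Python 3.11.15 (pandas 2.3.3, numpy 2.4.6, matplotlib 3.10.9, scipy 1.17.1). A member gene and a detail of the mouse line are not reported here.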

Additional observations from a re-analysis of the deposited data

How the results depend on the processing

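The alternatives that keep cells over 5% immunoglobulin UMIs out of classes other than plasma cells, that ask stromal cells for 5 markers and that leave out cycling cells were chosen after seeing the data; all others were planned. The counts of members called moved by over 1.5 times as follows. In T cells against ILC3s (3 higher, 5 lower), no low-count filter gave 5 higher, mixed cells left out 7 higher, only the 2 classes 10 higher and 10 lower, and no replicate block 0 and 0. In plasma cells (29 higher, 2 lower), 1 was lower with the immunoglobulin limit and with 5 stromal markers. In stromal cells (7 higher, 11 lower), no replicate block gave 2 higher and 5 lower, thinning to 1000 UMIs 3 higher and 5 lower, DESeq2 size factors 6 lower, no low-count filter 18, mixed cells left out 20, the immunoglobulin limit 7, 5 stromal markers 6, and leaving out mitochondrial and immunoglobulin genes 22, with or without the immunoglobulin limit. Between the ILC3 subsets (0 and 0), leaving out cycling cells gave 1 member lower; of the 7 mt- genes called higher, DESeq2 kept a count of 1 and no replicate block 0, and with mt- genes left out there are 0 by construction. In cycling T cells (21 higher), DESeq2 gave 1 and no replicate block 5. The median of T cells against ILC3s reversed to -0.0067 without replicate 1 (0.0665 without replicate 2) and to -0.0082 after thinning. In plasma cells Ndufa5, Ndufab1 and Ndufv2 reversed without replicate 1 (-0.2724, -0.0522 and -0.0612, against 1.1762, 0.9311 and 1.3089 without replicate 2). Without replicate 1 the median of all genes in plasma cells was -0.53. Summed levels moved beyond the replicate SD for ILC3s per 1000000 of all UMIs (13815) and for plasma cells without immunoglobulin (20830); without each replicate in turn they ranged from 14506 to 15281 in ILC3s, 13455 to 14969 in T cells, 8490 to 11084 in plasma cells and 8896 to 10239 in stromal cells. Apart from fewer samples, cells or genes in these alternatives, the cause was not tested. Of the calls, 20 of 31 in plasma cells, 3 of 18 in stromal cells, 1 of 21 in cycling T cells and 0 of 8 in T cells held in every alternative with a test. The 3 in stromal cells are Cox6c, Sdhaf1 and Cox6b2, and the test of Cox6b2 is not given as support. Plasma cells had too few cells for a fit with mixed cells left out (36 and 5 remained) or after thinning. The subsets had too few for those and for cells without a CD3 or T cell receptor UMI. None of these fits was run, so the plasma cell calls were not tried in them. Leaving out a replicate gives values without a test.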

Other observations

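Cox6a2, the heart and muscle form of Cox6a1, was not spread over a class but held by a few cells of replicate 1. There it had 97 UMIs in 21 of 1945 kept cells, which the gate had scattered: 6 were called stromal (31 UMIs), 5 plasma (6 UMIs) and 4 dendritic (26 UMIs). ILC3s and T cells of replicate 1 had none, which allows up to 0.699% and 1.04% of cells with a UMI. Of the 21 cells, 15 had a UMI of Siglech, against 6 of the other 1924 (0.312%); 20 had Bst2 (others 47.3%), 19 Ccr9 (others 36.1%) and 21 Tcf4 (others 44.5%). Siglech, Bst2 and Tcf4 are known from plasmacytoid dendritic cells, a class for which the gate had no markers, and these genes were chosen after the Cox6a2 cells had been seen. The median depth was 4783 UMIs in these cells and 4263 in the others. In replicate 2, 2 of 4185 cells, both T cells, held 2 Cox6a2 UMIs, and 1 of them had Siglech (others 0.0478%), 1 had Tcf4 (others 16.2%), both had Ccr9 (others 30.6%) and neither had Bst2 (others 13.1%).

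Classes too small for the fit gave these sums of the 95 members per 1000000 non-mitochondrial UMIs: 15599 and 16502 in 44 and 6 dendritic cells, and 14066 and 11637 in 12 and 38 macrophages or monocytes.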
